A study of Mus musculus with 6 samples.

Results

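The genes described here are the secreted ligands, cell-surface receptors and modulators of Wnt signalling, with the Tcf/Lef transcription factors and 2 feedback genes that read the signal out. The rule takes genes by symbol, from the families Wnt, Fzd, Sfrp, Dkk and Rspo and 19 further named genes, and it was drawn up with earlier results of these data known. Of 60 such genes in the RefSeq mouse gene table, 59 had a probe set with a single symbol on the array, out of 22180 genes in all. Tcf7 was not analysed here. The 59 genes held 64 probe sets, because 5 genes had 2 each.

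Expression was measured on single-colour Affymetrix arrays in 2 groups of mouse cells with 3 arrays each. The first group was undifferentiated embryonic stem (ES) cells, which are pluripotent. The second was Pax7-GFP cells, derived from ES cells over 3 weeks of differentiation toward skeletal muscle and sorted by flow cytometry for a green fluorescent reporter of Pax7, a transcription factor of muscle progenitors. The sorting gate was set on undifferentiated cultures of the same reporter line, and RNA was amplified in 2 cycles before hybridisation. Neither line, strain and sex nor any sorting of the ES cells is recorded in the labels. The labels name the replicates biological without saying whether they came from separate cultures, and p-values here reflect only sample-to-sample spread, some of which may be technical. Values are log2 RMA signals, on which a step of 1 is a 2-fold step in signal.

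Wnt proteins are lipid-modified secreted ligands that bind Frizzled receptors. With the co-receptors Lrp5 and Lrp6 they stabilise beta-catenin, which enters the nucleus and acts with Tcf/Lef factors on target genes. Through Ror and Ryk receptors or planar cell polarity proteins they also act without beta-catenin. Sfrp proteins, Frzb and Wif1 bind the ligands, Notum removes their lipid, Dickkopf proteins act on the co-receptors, and R-spondins with Lgr receptors protect Frizzled proteins from the ligases Znrf3 and Rnf43. In mouse ES cells the pathway supports self-renewal. In the embryo it patterns the somites that give rise to muscle, and in adult muscle it takes part in satellite cell activity and differentiation.

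The receptors changed widely, the antagonists changed in both directions, and no ligand passed both thresholds. A gene is called higher or lower here when its limma adjusted p is under 0.05 and its mean signal differs at least 2-fold. Of the 59 members, 13 were higher in Pax7-GFP cells, against a background of 7.34% of all genes, and 5 were lower, against 7.15%. Together 18 members were called, or 30.5%, where 14.5% of all genes were. By role, the called members were 7 of 10 Frizzled receptors, both Lrp co-receptors, 2 of 3 Ror and Ryk receptors, 1 of 3 Lgr receptors, 4 of 7 secreted Wnt antagonists, 1 of 4 Dickkopf genes, 1 of the 2 feedback genes, and 0 of the 19 ligands, 4 R-spondins, 2 Frizzled-degrading ligases and 3 Tcf/Lef factors. All 18 had groups that did not overlap, as did 36 of the 59 members and 51.9% of all genes. A further 14 members passed the p threshold with a smaller difference, as did 5914 of all 22180 genes. With no minimum fold, 32 of the 59 members passed that threshold, and 41.1% of all genes did. The median log2 fold change was 0.20 over the members and 0.024 over all genes, and the median absolute change was 0.43 against 0.23.

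**Figure D1:**
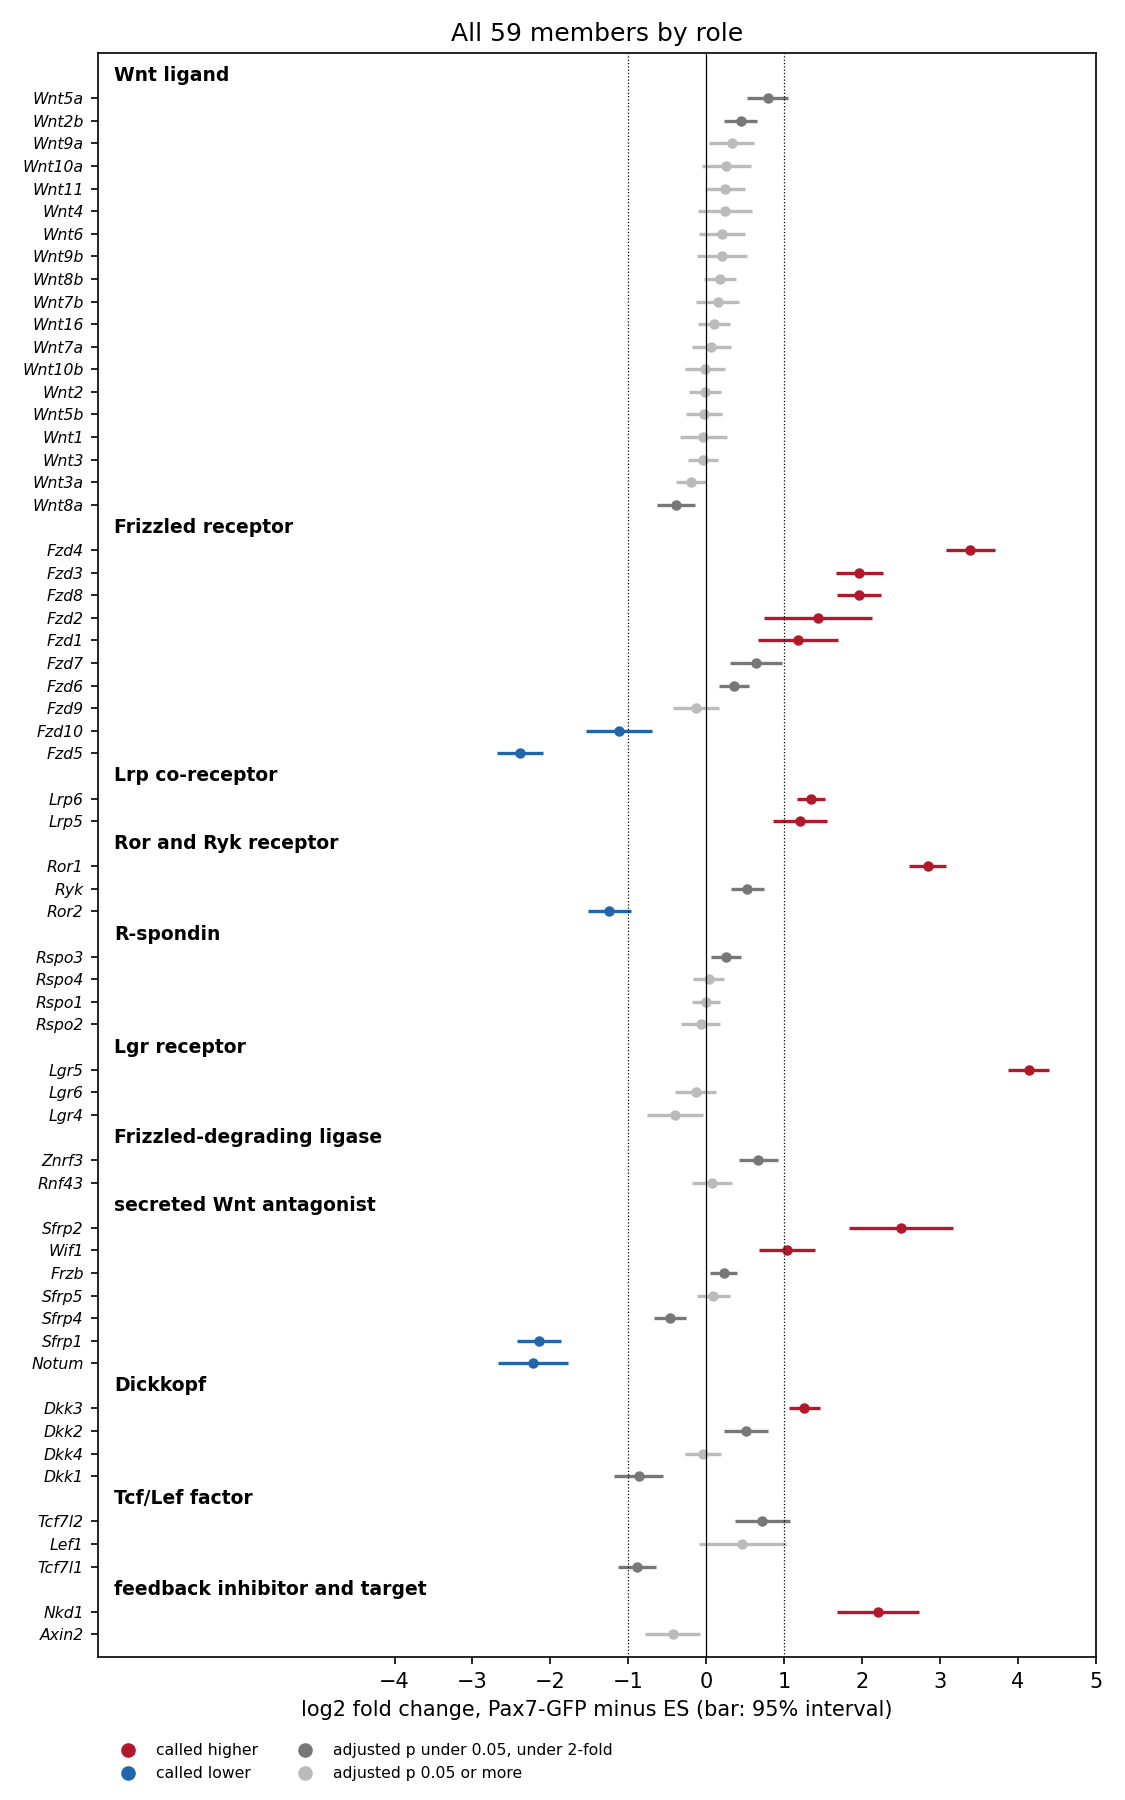
Log2 fold change of Pax7-GFP over ES cells for each of the 59 members, grouped by role, with 95% intervals from limma; red and blue mark called members, dark grey those past the p threshold alone, and dotted lines a 2-fold difference. The 19 ligands lie between -0.39 and 0.79, while Frizzled receptors spread from -2.39 to 3.39.

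The labels were checked against markers. The Pax7 signal was 5.70 ± 0.073 on the ES arrays against 10.90 ± 0.25 on the Pax7-GFP arrays (SD, n = 3 each), a rise that the sort on its reporter selects for, and Nanog, a pluripotency factor, fell by 6.89 on the log2 scale. All 8 ES cell markers were lower, 7 of 8 measured myogenic progenitor markers and 9 of 10 markers of differentiated muscle were higher. Array medians lay between 5.61 and 5.69, and the arrays correlated at 0.997 within ES, 0.987 to 0.993 within Pax7-GFP and 0.895 to 0.905 between groups, over genes, which are not independent replicates. Each array holds many cells, so fewer cells of a type and less RNA per cell cannot be told apart.

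The 19 Wnt ligands are the secreted signals of the pathway. Their values lay between 4.08 and 7.12 on all arrays, and no detection calls were used, so no ligand is described as present or absent. The widest 95% intervals of the ligands' log2 fold changes reached from -0.63 to 1.05, and for 18 of the 19 the whole interval lay inside a 2-fold difference. These intervals are of array signals and not of molecules.

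Wnt5a, a ligand known for signalling through Ror receptors and for effects that bypass beta-catenin, had the largest ligand difference. Its signals were 5.24, 5.32 and 5.44 in the ES arrays and 6.28, 5.92 and 6.16 in the Pax7-GFP arrays. The groups did not overlap, but the difference of 0.79 (SE 0.11, limma adjusted p = 0.000618) was short of 2-fold, and its 95% interval of 0.53 to 1.05 is the one that reaches past that line. Wnt2b, a ligand of the beta-catenin branch, stood at 5.57, 5.52 and 5.48 in ES and 5.87, 6.11 and 5.91 in Pax7-GFP cells, a difference of 0.44 (limma adjusted p = 0.00445). Wnt8a, which acts in early mesoderm, ran the other way, with 6.04, 5.80 and 5.90 in ES and 5.39, 5.68 and 5.50 in Pax7-GFP cells, a difference of -0.39 (limma adjusted p = 0.0185). Over the alternative settings the limma adjusted p of Wnt8a ran from 0.00502 to 0.0791.

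The remaining 16 ligands passed neither threshold, with log2 fold changes from -0.20 to 0.33. Among them were Wnt1 at -0.037, Wnt3a at -0.20 and Wnt7a at 0.065, which are ligands of the neural tube and surface ectoderm that induce myogenic genes in somites, and Wnt11, at 0.24, which orients growing muscle fibres. Wnt4, a ligand of several developing organs, differed by 0.24, with overlapping groups.

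Ligand genes that lie next to each other on the chromosome also stayed close to 0. In the order of protein-coding genes in the reference, 4 pairs of members were direct neighbours, and all 4 were ligand pairs. Wnt6 differed by 0.20 and its neighbour Wnt10a by 0.26. Wnt3a differed by -0.20 and Wnt9a by 0.33 (limma adjusted p = 0.0954 and 0.0697). Wnt9b differed by 0.20 and Wnt3 by -0.045, and Wnt10b by -0.010 and Wnt1 by -0.037. None of the 8 was called.

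Frizzled receptors bind the ligands through a cysteine-rich domain and span the membrane. Of the 10, 5 rose, 2 fell, 2 passed the p threshold alone and 1 passed neither, and their median absolute log2 change was 1.30, where it was 0.23 over all genes. Fzd4, which besides Wnts binds the unrelated ligand Norrin, rose most. Its signals were 5.98, 6.20 and 5.94 in the ES arrays and 9.22, 9.36 and 9.71 in the Pax7-GFP arrays. The nearest values of the groups lay 3.02 apart, and the log2 fold change was 3.39 (SE 0.14, 10.5-fold, limma adjusted p = 4.82e-07).

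Fzd5, a receptor of early embryonic and epithelial tissues, moved the opposite way. It stood at 8.61, 8.70 and 8.77 in ES cells and at 6.26, 6.58 and 6.09 in Pax7-GFP cells. The groups lay 2.04 apart at their nearest values. The fall was 2.39 on the log2 scale (SE 0.13, 5.23-fold, limma adjusted p = 2.26e-06). Fzd10 was the other receptor that fell, from 6.32, 6.81 and 6.48 in ES to 5.70, 5.06 and 5.50 in Pax7-GFP cells. Its groups were 0.62 apart at their nearest values and the difference was -1.12 (SE 0.18, limma adjusted p = 0.00133), close to the 2-fold minimum. It was no longer called without ES replicate 2 (-0.98) or without Pax7-GFP replicate 2 (-0.94).

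Fzd3, a receptor of the planar cell polarity branch, had signals of 5.95, 5.64 and 5.83 in ES and 7.56, 7.75 and 8.01 in Pax7-GFP cells. Fzd8, a receptor of the beta-catenin branch, had 6.25, 6.10 and 6.24 in ES and 8.23, 8.33 and 7.90 in Pax7-GFP cells. The groups were 1.61 apart for Fzd3 and 1.65 apart for Fzd8 at their nearest values. The log2 fold changes were near each other, 1.96 for Fzd3 (SE 0.13) and 1.96 for Fzd8 (SE 0.12), with limma adjusted p-values of 8.20e-06 and 5.18e-06.

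Fzd2 and Fzd1, both receptors of the beta-catenin and other branches, rose with a wide spread among Pax7-GFP arrays. Fzd2 stood at 5.54, 5.84 and 5.73 in ES and at 7.89, 6.51 and 6.98 in Pax7-GFP cells. Replicate 1 was the highest of the Pax7-GFP arrays for Fzd2 and replicate 2 the lowest, only 0.68 above the highest ES array. The log2 fold change was 1.43 (SE 0.30, limma adjusted p = 0.00509), and with dim signals of all genes raised to a floor, which altered no Fzd2 value, the difference was still 1.43 but the limma adjusted p was 0.0557. Fzd1 stood at 6.83, 6.33 and 6.33 in ES and at 7.39, 8.17 and 7.45 in Pax7-GFP cells. Here replicate 2 was the highest of the Pax7-GFP arrays. The difference of 1.17 (SE 0.22, limma adjusted p = 0.00296) was 0.92 without that array, under the 2-fold minimum.

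Fzd7, the Frizzled that satellite cells use for Wnt7a, passed the p threshold alone. Its signals were 7.06, 7.04 and 6.89 in ES and 7.95, 7.56 and 7.39 in Pax7-GFP cells, a difference of 0.64 (SE 0.14, limma adjusted p = 0.00693) with a 95% interval of 0.31 to 0.97. Fzd6, of the planar polarity branch, differed by 0.35 (limma adjusted p = 0.00865), and Fzd9 by -0.13 (limma adjusted p = 0.499), with overlapping groups.

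**Figure D2:**
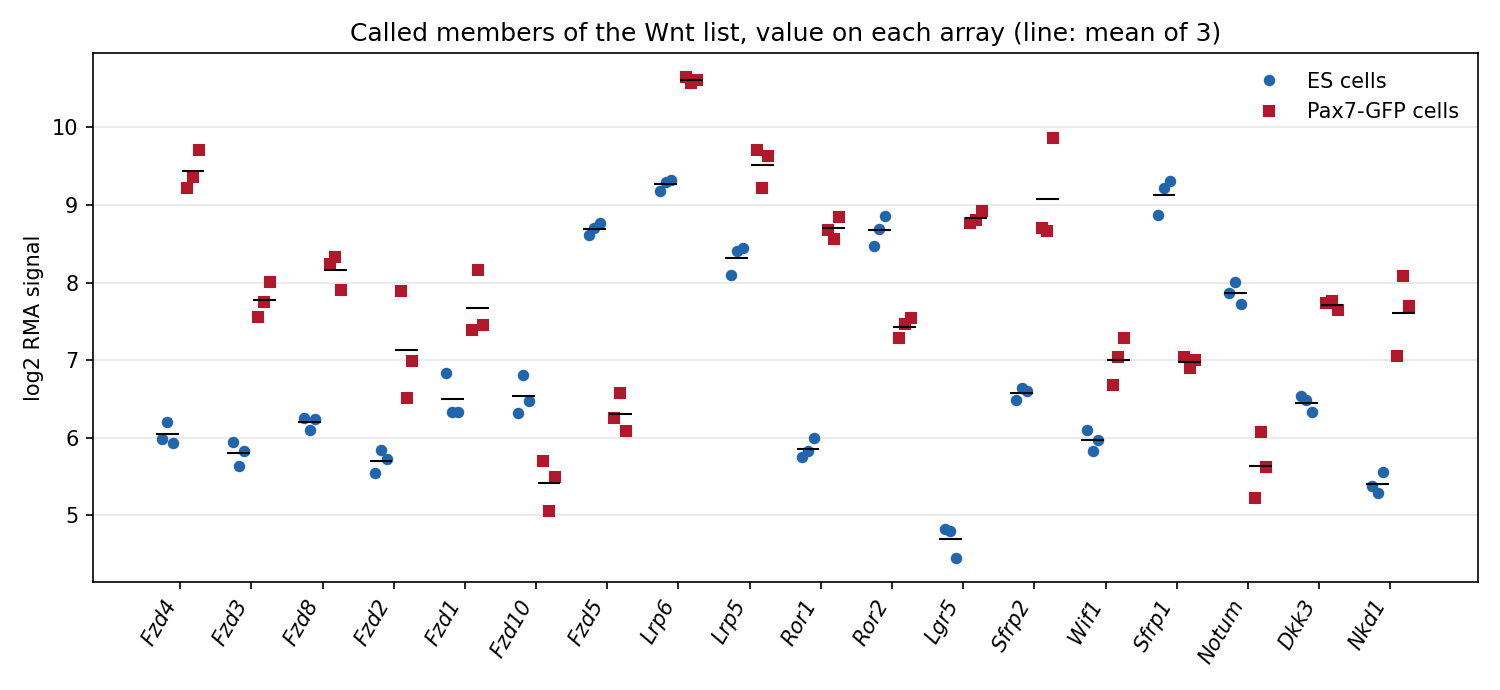
Log2 RMA signal of the 18 called members on each of the 3 ES arrays (blue circles) and 3 Pax7-GFP arrays (red squares), with the group mean as a line. The groups are apart in all 18, by 3.94 for Lgr5 and by 0.56 for Fzd1 at their nearest values; levels of different genes cannot be compared, since each comes from its own probes.

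Lrp5 and Lrp6 are the single-pass co-receptors that carry the beta-catenin branch, and both rose. Lrp6 was at 9.18, 9.30 and 9.32 in the ES arrays and at 10.65, 10.57 and 10.61 in the Pax7-GFP arrays. All Pax7-GFP arrays lay above all ES arrays, and the log2 fold change was 1.34 (SE 0.080, limma adjusted p = 4.10e-06). Its second probe set, which had lower signals, gave 0.54 (limma adjusted p = 0.01), and the mean of both gave 0.94, under the 2-fold minimum. Lrp5 was at 8.10, 8.41 and 8.44 in ES and at 9.70, 9.22 and 9.64 in Pax7-GFP cells, 1.20 higher (SE 0.15, limma adjusted p = 0.000279).

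Ror1 and Ror2 are receptor tyrosine kinases that bind Wnt5a, and they changed in opposite directions. Ror1 stood at 5.75, 5.83 and 5.99 in ES and at 8.68, 8.57 and 8.85 in Pax7-GFP cells. The groups lay 2.57 apart, and Ror1 rose by 2.84 on the log2 scale (SE 0.11, 7.16-fold, limma adjusted p = 2.81e-07). Ror2 stood at 8.48, 8.69 and 8.86 in ES and at 7.29, 7.46 and 7.55 in Pax7-GFP cells. It fell by 1.24 (SE 0.12, 2.37-fold, limma adjusted p = 6.09e-05), with all Pax7-GFP arrays below all ES arrays. Ryk, a Wnt receptor with an inactive kinase domain, differed by 0.53 (limma adjusted p = 0.00184), which is short of 2-fold.

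R-spondins are secreted proteins that strengthen Wnt signals by binding Lgr receptors, and none of the 4 was called. Rspo1, Rspo2 and Rspo4 had differences of -0.0011, -0.070 and 0.030. Rspo3 had 5.61, 5.65 and 5.57 in ES and 5.95, 5.86 and 5.78 in Pax7-GFP cells, a difference of 0.25 (limma adjusted p = 0.0391). The 95% intervals of all 4 lay between -0.32 and 0.44, well inside 2-fold. Over the alternative settings the limma adjusted p of Rspo3 ran from 0.0245 to 0.135.

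Lgr5, an R-spondin receptor that marks stem cells of the intestine and other epithelia, had the largest log2 change of the 59 members when each gene is read from its brightest probe set. Its signals were 4.82, 4.80 and 4.45 in the ES arrays and 8.76, 8.80 and 8.92 in the Pax7-GFP arrays. The nearest values of the groups were 3.94 apart and the Pax7-GFP arrays differed little among themselves, with an SD of 0.080. The rise was 4.14 on the log2 scale (SE 0.12, 17.6-fold, limma adjusted p = 6.63e-08). The ES signals were not shown to be above background, and with signals under 5.05 raised to that floor, as all 3 were, the Lgr5 difference was 3.78 (limma adjusted p = 1.30e-05). A second Lgr5 probe set was not called, with a difference of 0.63 (limma adjusted p = 0.00144), and the mean of both gave 2.39, below Fzd4 at 3.39 and Ror1 at 2.84. Its paralogs were not called: Lgr4 differed by -0.40 (limma adjusted p = 0.0787) from ES signals of 9.69, 9.85 and 9.79, and Lgr6 by -0.14 (limma adjusted p = 0.397).

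The membrane ligases Znrf3 and Rnf43 remove Frizzled proteins from the cell surface and are themselves Wnt targets. Znrf3 stood at 8.22, 8.45 and 8.48 in ES and at 8.89, 9.15 and 9.12 in Pax7-GFP cells. Its groups did not overlap, and the difference of 0.67 (SE 0.11, limma adjusted p = 0.00125) stayed under 2-fold, with a 95% interval of 0.42 to 0.92. Rnf43 differed by 0.076 (limma adjusted p = 0.656).

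Among secreted antagonists, 2 rose and 2 fell, and the 2 Sfrp genes that were called went opposite ways. Sfrp proteins hold a Frizzled-like domain and bind Wnt ligands outside the cell. Sfrp1 was at 8.87, 9.22 and 9.31 in the ES arrays and at 7.05, 6.90 and 7.00 in the Pax7-GFP arrays, a fall by 2.15 (SE 0.12, 4.43-fold, limma adjusted p = 3.09e-06). Sfrp2 was at 6.48, 6.64 and 6.61 in ES and at 8.70, 8.66 and 9.86 in Pax7-GFP cells. Replicate 3 stood above the other two Pax7-GFP arrays for Sfrp2, and the SD was 0.68. The rise was 2.50 (SE 0.29, 5.65-fold, limma adjusted p = 0.000182). The second Sfrp2 probe set gave 0.29 (limma adjusted p = 0.0795) and the mean of both 1.40.

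Notum, the enzyme that removes the lipid from Wnt proteins and is itself a Wnt target, stood at 7.86, 8.00 and 7.73 in ES and at 5.23, 6.07 and 5.62 in Pax7-GFP cells. The groups were 1.66 apart at their nearest values, and the fall was 2.23 (SE 0.19, 4.68-fold, limma adjusted p = 3.65e-05). Its second probe set showed -0.23 (limma adjusted p = 0.223), and the mean of both -1.23. Wif1, a Wnt-binding inhibitor, was at 6.10, 5.83 and 5.97 in ES and at 6.68, 7.04 and 7.29 in Pax7-GFP cells. Its difference of 1.04 (SE 0.15, limma adjusted p = 0.000756) was the called value nearest the 2-fold minimum, and it was under it without ES replicate 2 (0.97) or Pax7-GFP replicate 3 (0.89). Of the other antagonists, Sfrp4 and Frzb passed the p threshold alone, with differences of -0.46 and 0.22 (limma adjusted p = 0.00347 and 0.0458), and Sfrp5, at 0.093, passed neither. Signals of Sfrp4 in Pax7-GFP cells and of Frzb on all arrays were under the floor of 5.05, and with the floor the Sfrp4 difference was -0.049 (limma adjusted p = 0.489) and Frzb had none to give.

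**Figure D3:**
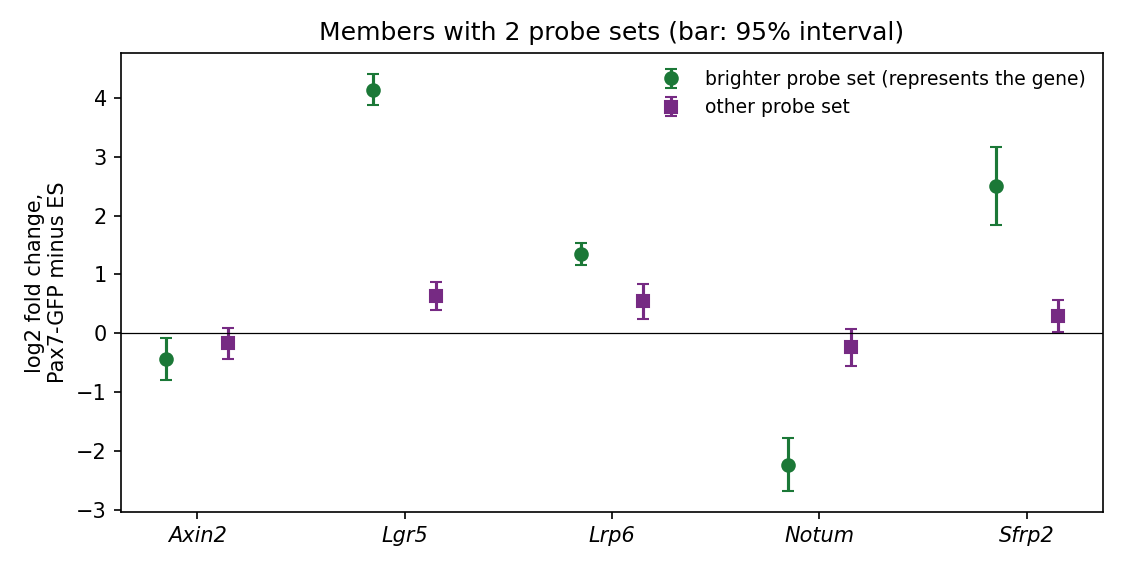
Log2 fold change (Pax7-GFP minus ES) with 95% interval for both probe sets of the 5 members that have 2; green circles are the brighter probe set, which represents the gene, and purple squares the other. The signs are the same within each gene, but the other probe set is nearer 0 in all 5, from 0.63 for Lgr5 to -0.23 for Notum.

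Dickkopf proteins bind Lrp5 and Lrp6, apart from the divergent Dkk3, whose link to Wnt signalling is weak. Dkk3 was the one that rose, from 6.54, 6.48 and 6.34 in ES to 7.74, 7.76 and 7.64 in Pax7-GFP cells. Its groups were 1.10 apart at their nearest values, and the log2 fold change was 1.26 (SE 0.088, limma adjusted p = 9.93e-06). Dkk1, the classical inhibitor and a Wnt target, had 6.84, 6.80 and 7.10 in ES and 5.90, 6.30 and 5.93 in Pax7-GFP cells. The groups did not overlap, but the difference of -0.87 (SE 0.13, limma adjusted p = 0.000959) fell short of 2-fold. Dkk2 differed by 0.51 (limma adjusted p = 0.0104) and Dkk4 by -0.040.

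Markers of other cell types also differed between these arrays, in both directions. Of 12 fibroblast and connective tissue markers measured, 8 were called higher and 0 lower. Their summed linear signal was 1816 to 2348 on the ES arrays and 7980, 6304 and 5707 on Pax7-GFP replicates 1, 2 and 3. Values on this log2 scale do not reach 0, so no marker can be given as at 0. Among 7 tendon and cartilage markers 3 were higher, led by Sox9 at 3.01, and their summed signal was 401.9 to 458.4 on ES arrays and 1135 to 1380 on Pax7-GFP arrays. The other 4 were not called, among them the cartilage genes Acan at -0.35, Col2a1 at -0.054 and Matn1 at -0.013. Of 8 neuron markers 2 were higher and 1 lower. Of 5 neural progenitor markers 2 were higher, led by Nes at 2.19, and 2 lower, Olig2 at -2.42 and Sox1 at -1.10. In the endothelial list of 6, Cdh5 was higher at 1.41, Pecam1 was lower at -2.43 and 4 were not called. In the neural crest list 3 of 4 were lower, in the blood list 2 of 4, and in the epithelial and endodermal list 3 of 8, with 1 higher. Sums for differentiated muscle markers were 745 to 823 on ES arrays and 11020, 9762 and 13360 on the Pax7-GFP arrays. Sums for myogenic progenitor markers were 497 to 541 on ES arrays and 11150, 9431 and 10280 on the Pax7-GFP arrays. Pax7-GFP replicate 3 held the highest differentiated muscle sum, and replicate 1 the highest connective tissue and myogenic progenitor sums. Which Pax7-GFP array was highest differed among the called Wnt members. It was replicate 3 for Sfrp2, Wif1, Fzd4 and Ror1, replicate 1 for Fzd2 and Lrp5, and replicate 2 for Fzd8 and Nkd1, among others. The part of these cell types in the Wnt values was not tested.

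The Tcf/Lef factors bind DNA and carry beta-catenin to target genes. None of the 3 measured was called. Tcf7l1, which mainly represses and restrains pluripotency genes in ES cells, had 9.88, 9.93 and 10.01 in ES and 9.10, 8.85 and 9.20 in Pax7-GFP cells. Its groups did not overlap, and its difference of -0.89 (SE 0.11, limma adjusted p = 0.000216) was the uncalled value nearest the 2-fold minimum. Tcf7l2 differed the other way, from 7.81, 7.84 and 7.73 to 8.71, 8.14 and 8.70, by 0.72 (SE 0.15, limma adjusted p = 0.00518). Lef1, an activating factor and a Wnt target, had 7.98, 8.02 and 8.10 in ES and 7.84, 8.79 and 8.84 in Pax7-GFP cells. Replicate 1 of Lef1 was below all ES arrays and the other two Pax7-GFP arrays were above them, so the difference of 0.46 (SE 0.24, limma adjusted p = 0.176) was within the spread.

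Axin2 and Nkd1 are feedback inhibitors that are widely used as readouts of beta-catenin signalling, and they did not move together. Nkd1 was at 5.37, 5.28 and 5.55 in the ES arrays and at 7.06, 8.08 and 7.69 in the Pax7-GFP arrays. The groups were 1.51 apart and Nkd1 rose by 2.21 (SE 0.23, 4.62-fold, limma adjusted p = 9.64e-05), where the Pax7-GFP arrays had an SD of 0.52. Axin2 was at 7.80, 7.95 and 7.92 in ES and at 7.35, 7.83 and 7.21 in Pax7-GFP cells. Its groups overlapped and the difference was -0.43 (SE 0.15, limma adjusted p = 0.0559), with a 95% interval of -0.79 to -0.075 that lies inside 2-fold. The second Axin2 probe set gave -0.17 (limma adjusted p = 0.290).

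Promoter windows were searched for letters that Tcf/Lef factors and myogenic factors are known to bind, since members in one pathway changed in different directions. The windows are the 250 bases before the annotated start in RefSeq (GRCm38.p6). They were found for 40 of the 59 members, among them 9 of the 18 called. The motifs were CTTTGAT and CTTTGTT, which are forms of the Tcf/Lef site, and CAGCTG, an E-box form that myogenic factors bind, on both strands, with no overlap between the motifs in the windows shown. A Tcf/Lef form was in 8.06% of all 32851 promoter windows, in 0 of the 9 windows of called members and in 5 of 39 windows of members not called. The E-box form was in 13.0% of all windows, in 2 of the 9 and in 4 of the 39. A match is only letters in a window, and its absence says nothing about a factor.

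The 2 called members with an E-box form are shown first, since one rose and the other fell, followed by Dkk1 and Fzd7, whose signals passed the p threshold alone and whose single windows hold a Tcf/Lef form. Tcf7l2, also past the p threshold alone, holds CTTTGTT in 1 of its 2 windows and is not shown. Wnt11 and Wnt5b each hold CTTTGAT in a window and are not shown either. These ligands passed neither threshold, with differences of 0.24 and -0.026. Sequences run 5′ to 3′ on the gene's strand, and capitals mark the motif. The windows are chr8:88527383-88527632 on the plus strand for Nkd1, chr5:128600856-128601105 on the plus strand for Fzd10, chr19:30549497-30549746 on the minus strand for Dkk1 and chr1:59481897-59482146 on the plus strand for Fzd7.
Nkd1: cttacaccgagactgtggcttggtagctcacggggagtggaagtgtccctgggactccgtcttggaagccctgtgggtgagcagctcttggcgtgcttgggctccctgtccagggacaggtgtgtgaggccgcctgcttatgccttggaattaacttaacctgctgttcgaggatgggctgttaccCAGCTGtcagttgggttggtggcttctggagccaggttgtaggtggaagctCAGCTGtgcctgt
Fzd10: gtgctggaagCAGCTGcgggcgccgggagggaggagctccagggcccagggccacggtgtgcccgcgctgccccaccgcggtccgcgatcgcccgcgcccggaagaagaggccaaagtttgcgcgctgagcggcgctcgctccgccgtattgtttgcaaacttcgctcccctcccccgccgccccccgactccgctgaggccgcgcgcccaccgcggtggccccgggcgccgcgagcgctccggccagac
Dkk1: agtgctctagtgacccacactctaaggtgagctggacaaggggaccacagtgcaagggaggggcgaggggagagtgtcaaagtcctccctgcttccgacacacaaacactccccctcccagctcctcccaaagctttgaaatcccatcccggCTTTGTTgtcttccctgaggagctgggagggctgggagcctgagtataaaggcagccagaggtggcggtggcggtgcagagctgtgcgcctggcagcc
Fzd7: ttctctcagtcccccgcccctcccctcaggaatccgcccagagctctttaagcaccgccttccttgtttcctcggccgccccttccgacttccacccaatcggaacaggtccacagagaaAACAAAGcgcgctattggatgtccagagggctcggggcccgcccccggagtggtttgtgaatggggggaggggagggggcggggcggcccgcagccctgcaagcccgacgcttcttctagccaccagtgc
Nkd1 thus holds 2 E-box forms, the nearer close to the annotated start, and Fzd10 holds 1 near the far end. The Nkd1 signal rose by 2.21 and the Fzd10 difference was -1.12. Any link of these letters to the changes was not tested.

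Other genes of the pathway were followed in lists outside the member rule. Of 119 genes listed, 114 were measured. In Pax7-GFP cells 25 were higher, or 21.9%, against 7.34% of all genes, and 17 were lower, or 14.9%, against 7.15%. The same shares of all genes stand behind the counts of each list below. The median log2 fold change of the 114 was 0.14. The 17 lower include 9 of the 10 pluripotency genes that Tcf7l1 binds in ES cells, a list that shares Nanog and other genes with the ES cell markers. The share of 14.9% thus rests largely on that list. Lower genes made up 4.35% of the secretion and cell surface list and 8% of the destruction complex list. They were 0% of the nuclear co-factors, 6.67% of the planar cell polarity list and 18.2% of the other targets.

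Genes of Wnt secretion and of the cell surface had the most rises, 10 of 23, with 1 fall and 12 not called. Tspan12, a membrane protein that enhances Norrin signals through Fzd4, rose by 4.17 (SE 0.13) from 5.37, 5.36 and 5.43 to 9.64, 9.26 and 9.75. Kremen1, a receptor that with Dkk1 removes Lrp6 from the surface, rose by 3.87 (SE 0.088) from 7.25, 7.48 and 7.34 to 11.23, 11.17 and 11.27. Porcn, the enzyme that adds the lipid to Wnt proteins, was the one that fell, by 1.11 (SE 0.088). The limma adjusted p-values of these 3 were 1.03e-07, 2.75e-08 and 2.03e-05.

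Partners of the receptors named above were looked at after their values were seen. Wls, the carrier that takes Wnt proteins to the surface, rose by 1.71 (limma adjusted p = 2.35e-06), opposite to Porcn. Adgra2 and Reck, which together form a receptor complex for Wnt7 ligands, rose by 3.33 and 1.18 (limma adjusted p = 3.14e-06 and 0.00536). Without Pax7-GFP replicate 1 the Reck difference was 0.85, under 2-fold. With the signal floor, which altered no Reck value, the difference was still 1.18 but the limma adjusted p was 0.0552. The ligands Wnt7a and Wnt7b differed by 0.065 and 0.15. Ndp, which encodes Norrin, differed by 0.31 (limma adjusted p = 0.0346), below the 2-fold minimum, beside the rises of its receptor Fzd4 and of Tspan12. The Ndp signals in ES cells, 5.08, 4.77 and 5.00, were near the floor of 5.05. Across the alternative settings its limma adjusted p ran from 0.00496 to 0.126.

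**Figure D4:**
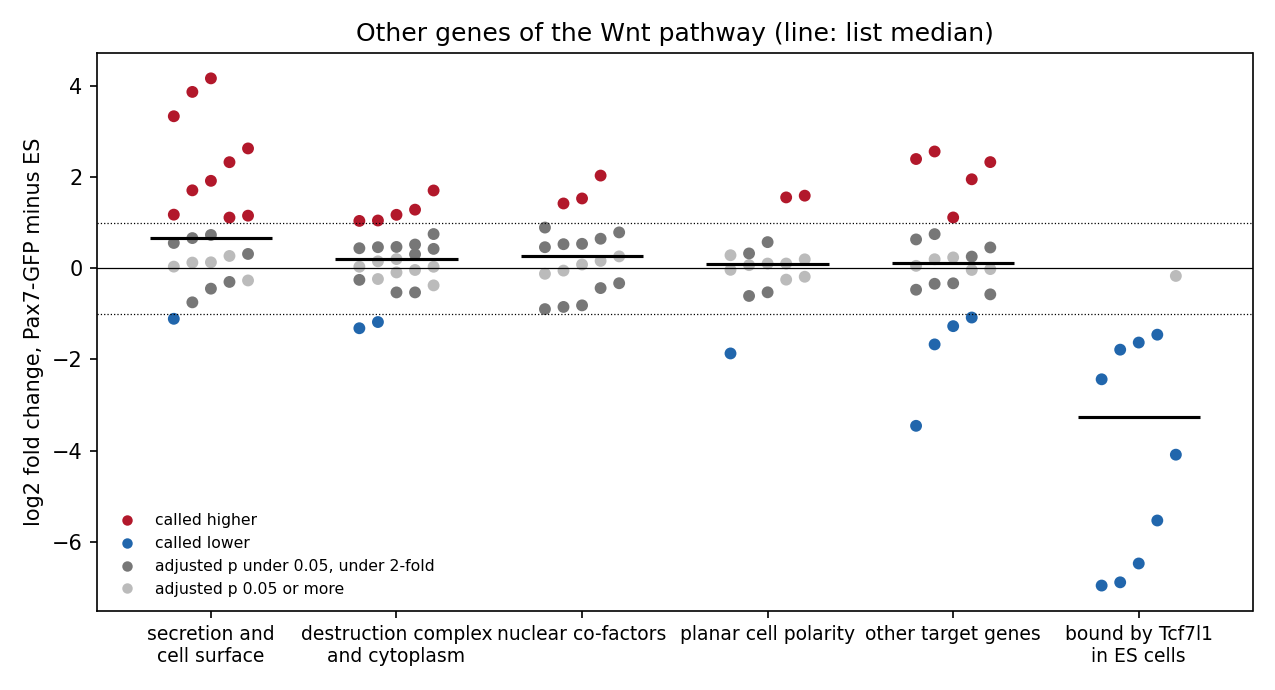
Log2 fold change (Pax7-GFP minus ES) of 114 other genes of the Wnt pathway in 6 lists, 1 point per gene, with the list median as a line and 2-fold differences as dotted lines. The secretion and cell surface list has a median of 0.66 and the genes bound by Tcf7l1 in ES cells one of -3.26; the other 4 medians lie between 0.10 and 0.26.

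In the cytoplasm, 5 of 25 measured genes of the destruction complex and its regulators rose, 2 fell and 18 were not called. Dact1, a Dishevelled-binding regulator, rose by 1.71 (SE 0.24), and Nkd2, the paralog of Nkd1, by 1.28 (SE 0.12). Dact2 and Ccdc88c, another Dishevelled-binding protein, fell by 1.18 and 1.32. Ctnnb1, which encodes beta-catenin, differed by 0.44, and Gsk3b, a kinase that marks it for destruction, by 0.75, both under 2-fold and named after their values were seen. Of 19 nuclear co-factors 3 rose, 0 fell and 16 were not called, led by Pygo1, which links beta-catenin to chromatin, by 2.03 (SE 0.10) and the kinase Hipk2 by 1.53. In the planar cell polarity list 2 of 15 rose, Prickle1 by 1.59 and Daam2 by 1.55, and Vangl1 fell by 1.87 (SE 0.11). All genes said to rise or fall here had limma adjusted p-values of 0.000586 or less.

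Among 22 other genes described as Wnt targets 5 rose, 4 fell and 13 were not called, with a median of 0.12. Snai2, a factor of mesenchymal and myogenic cells, rose by 2.56 (SE 0.13) and Cd44, a hyaluronan receptor, by 2.40 (SE 0.11). Fgf4, an ES cell growth factor, fell by 3.46 (SE 0.095) and Bmp4 fell by 1.67 (SE 0.39), with Pax7-GFP signals of 8.85, 7.41 and 7.10. With dim signals of all genes raised to a floor, Bmp4 kept its own values and its difference of -1.67 but was no longer called (limma adjusted p = 0.0753). Sp5 and Cdx1, named after their values were seen as close readouts of beta-catenin in early embryonic cells, fell by 1.27 and 1.08 (limma adjusted p = 0.000286 and 0.000602). Cdx1 was under the 2-fold minimum without ES replicate 2 (-0.94), without Pax7-GFP replicate 1 (-0.98) or with array weights (-0.999). These targets also respond to other signals, and the list was not tested as a group.

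The list of genes that Tcf7l1 binds in ES cells had 9 of 10 members lower and 0 higher. Nr0b1, a nuclear receptor of naive cells, fell by 6.96 (SE 0.15) from 11.72, 11.84 and 11.80 to 4.66, 5.19 and 4.62, and Nanog by 6.89 (SE 0.10). Esrrb, which Tcf7l1 represses directly and which was named after its value was seen, had the smallest of the 9 falls, by 1.46 (SE 0.17). Tbx3 was the one not called, at -0.17, and was named after its value was seen. Tcf7l1 itself differed by -0.89 in the same arrays.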

How the data were processed

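Signals came from 6 arrays, 3 per group. Per the submitters' processing notes the authors used RMA in R 2.12.1, and the deposited values are log2 signals, already normalized; further steps are not stated. Probe sets were named through the platform annotation, and of several probe sets for a gene the one with the highest mean over the 6 arrays was used. All 22180 genes were fitted with limma 3.58.1 (lmFit and eBayes, R 4.3.3) and p-values were adjusted by Benjamini-Hochberg over all of them. A call needed an adjusted p under 0.05 and a 2-fold difference. The number of arrays limits the precision. The code was tested on simulated data. Alternatives changed the normalization, dim-signal handling, probe sets, the variance model, the fold rule, a replicate block and single arrays. Every called member was described singly, and members not called were given singly or by counts and ranges. Other pathway genes were named where they had the largest called changes in their list, with exceptions said beside them. Members, lists and named genes were chosen with earlier results of these data known. Promoters were matched by symbol.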

Additional observations from a re-analysis of the deposited data

How the results depend on the processing

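The members' counts stayed at 13 higher and 5 lower under quantile normalization, median centring, a dim-signal filter, a trended robust variance and array weights. Counting every probe set singly also gave 13 and 5. With the signal floor, or with the mean of a gene's probe sets, the members' counts were 12 and 5. With no minimum fold they were 23 and 9 (all genes 4378 and 4748, other pathway genes 48 and 34), and when limma tested against the 2-fold minimum itself they were 8 and 3 (all genes 879 and 834, other pathway genes 15 and 10). Leaving out each array gave 12 to 13 higher and 4 to 5 lower members. The test against 2-fold left out Dkk3, Fzd1, Fzd2, Fzd10, Lrp5, Ror2 and Wif1. Under the 14 settings that kept the call rule and gave each gene a value, 13 of the 18 called members kept their call, and Fzd1, Fzd2, Fzd10, Lrp6 and Wif1 lost it under some. A replicate block gave 13 and 5 members. Deviations of same-numbered arrays from their group means correlated at -0.108, -0.22 and 0.007, and those of differently numbered arrays at -0.077 to 0.195. Deviations within a group of 3 arrays sum to 0, so these values cannot settle whether the numbers pair the arrays. No detection values were used, so how far dim signals lie above background is unknown.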
